A study of Populus trichocarpa with 6 samples.

Results

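The 232 regions described here are stretches of 1 kb or more where FLAG-tagged PtrVCS2 was enriched over input chromatin, with overlapping peaks in all 3 replicate lists, in cambium of Populus trichocarpa (black cottonwood). Pooling the 3 lists and merging intervals with an overlap of 1 bp or more gave 13489 regions. Those with peaks from all lists are called shared, and there were 4225. On the 19 chromosomes 4194 shared regions were found, and 290 of them were 1000 bp or wider. The 58 of these that lay in a chain of 3 or more shared regions with gaps of 5000 bp or less were set aside, which left the 232 broad regions. The merged width and the recurrence in all lists chose them, so these and every other value from the same peak calls are given as a description, without a test. The narrower regions used beside them are the 3292 shared regions under 1000 bp outside chains.

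All plants carried the PtrVCS2-3×FLAG overexpression genotype. The 3 immunoprecipitated (IP) samples were obtained with an antibody against FLAG, and the 3 input samples are chromatin without that antibody step. The labels call the samples of each kind biological replicates. They give no promoter, no plant age and no number of plants, and no plants without the fusion were analysed here, so enrichment is that of an overexpressed fusion over input and not over an untagged plant. Every list was set against pooled input, as the peak names say, so the 3 lists share 1 control.

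Cambium is the layer of dividing cells in the stem that forms wood on its inner side and bast on its outer side. PtrVCS2 is a zinc finger protein of this layer. In chromatin immunoprecipitation followed by sequencing (ChIP-seq), proteins are cross-linked to DNA, the chromatin is sheared, and fragments bound to the protein are recovered and sequenced. A protein held at a single short site gives a peak about as wide as the fragments, whereas several sites close together, or association along a stretch of chromatin, give a wider one. A peak list by itself does not tell these apart.

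The files state no read depth. The lowest expected height of a list divided by its shortest peak width, taken as the read extension, gives a relative depth of 1.06, 1.00 and 1.11 in replicates 1, 2 and 3, with replicate 2 as the reference. The shortest peaks were 113 bp, 97 bp and 126 bp, and the lists held 6536, 10759 and 9255 peaks. Replicate 3 thus had the longest extension, the most reads kept by the caller and, as given below, the widest spans. Replicate 2 had the shortest extension and the fewest kept reads, yet wider median spans than replicate 1. The part of extension and depth in the widths was not tested. Regions are named by position, counted from 1, in the coordinates of the files, whose genome build is not given in the sources used here. For the same reason no gene and no sequence is attached to them.

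The broad regions took up 300.1 kb in all, which is 13.2% of the bases in shared regions on chromosomes, with 5.53% of their number. Their merged width ran from 1000 bp to 2830 bp, with a median of 1223 bp and quartiles of 1077 bp and 1399.5 bp. Many lay close to the limit. Under 1200 bp there were 105, at 1500 bp or more there were 37, and only 7 reached 2000 bp. The narrower regions had a median width of 461 bp. Directly above the limit stood regions on chromosome 1 from 27163553 to 27164552 (1000 bp), on chromosomes 4 and 8 (1001 bp each) and on chromosome 1 from 4076308 (1003 bp). Their mean folds of IP over pooled input were 4.71, 5.82, 5.06 and 4.32. Directly below it stood regions on chromosomes 7 and 9 (998 bp each), 5 (997 bp) and 8 (996 bp), with mean folds of 5.04, 3.32, 5.94 and 2.93. The ranges of fold on the 2 sides of the limit overlapped.

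The merged width joins the lists, and fewer regions were as wide in every single list. The span from the first to the last peak base of a list had a median of 1021.5 bp in replicate 1, 1073 bp in replicate 2 and 1151.5 bp in replicate 3, a mean of 1082 ± 65 bp (SD, n = 3). It reached 1000 bp in 129, 148 and 185 of the 232 regions, in all 3 lists in 96 (41.4%), and in no list in 15. Replicate 3 had the widest span in 139 regions, replicate 2 in 61 and replicate 1 in 31. The same order held in the narrower regions, where the median span was 299 bp, 326.5 bp and 409 bp, so the longer reach of replicate 3 was not seen in broad regions alone. Bases covered by peaks of all 3 lists made up a median of 61.6% of the merged width, and 717.5 bp. This common core was at least 500 bp long in 200 regions and at least 1000 bp long in 53. In 2 regions, on chromosome 8 from 3755532 and on chromosome 18 from 13218398, no base was covered in all 3 lists, and the region held together through peaks that overlap in pairs.

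**Figure D1:**
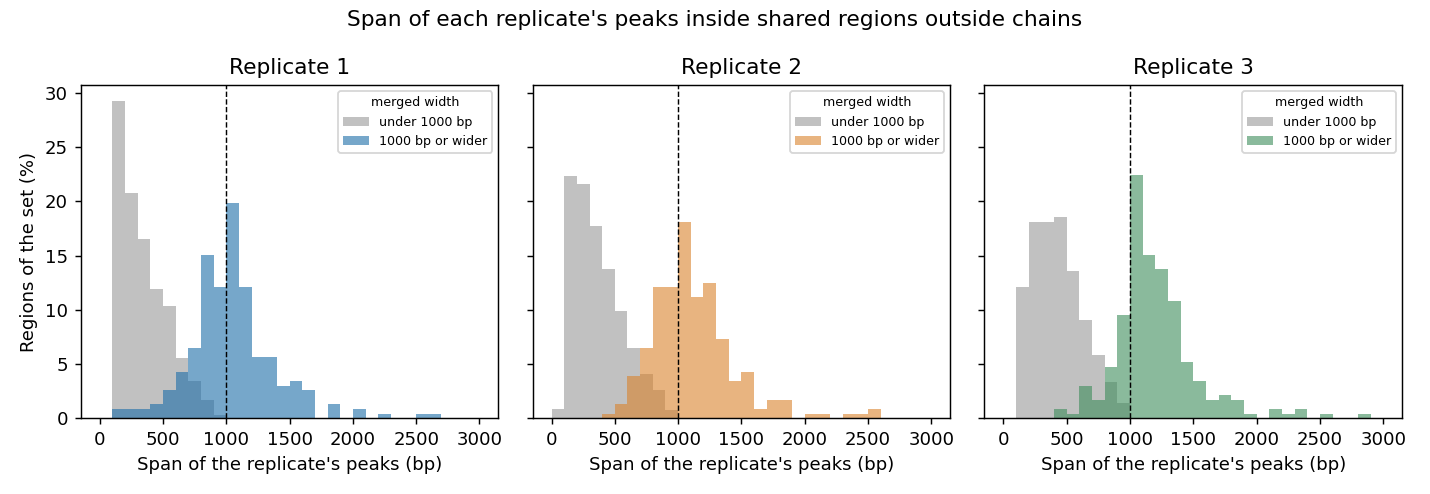
Span of the peaks of each replicate (x axis, bp, in steps of 100 bp) as a percentage of the 232 broad regions (coloured) and of the 3292 narrower shared regions outside chains (grey). The dashed line marks 1000 bp; 129, 148 and 185 broad regions reach it in replicates 1, 2 and 3, and the grey bars end before it because the choice of regions sets that limit.

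Inside the broad regions the lists differed in how the enrichment was divided. Every deposited peak carries 1 summit, so the number of summits in a list equals its number of separate peaks. Replicate 3 had a single peak in 185 of the 232 regions (79.7%), whereas replicate 1 had a single peak in 100 (43.1%) and replicate 2 in 84 (36.2%). Replicates 1 and 2 had 3 or more peaks in 37 and 50 regions, and replicate 3 in 5. The most peaks in a region were 5, 6 and 4 in replicates 1, 2 and 3. Under the 185 single peaks of replicate 3, replicate 1 was split into several peaks in 105 and replicate 2 in 115. In the reverse, replicate 3 was split in 20 of the 100 regions with a single peak in replicate 1 and in 14 of the 84 with a single peak in replicate 2. Both replicates 1 and 2 were split under a single peak of replicate 3 in 83 regions, and a single peak in both lay over a split in replicate 3 in 8. A single peak in every list was found in 48 regions (20.7%), a split in 1 list in 62, in 2 lists in 101 and in every list in 21 (9.05%). That last share was 0.51% among regions rebuilt from peaks with a −log10 q of 10 or more, and 4.39% with equal numbers of peaks per list. With a replicate left out, regions were chosen afresh and only both remaining lists had to be split, which is a looser condition. The share was then 6.95% without replicate 1, 4.47% without replicate 2 and 22.9% without replicate 3. A single peak of at least 1000 bp stood in all 3 lists in 29 regions. In the narrower regions the list with the most single peaks was again replicate 3, with 96.4% against 89.0% and 84.2% in replicates 1 and 2.

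**Figure D2:**
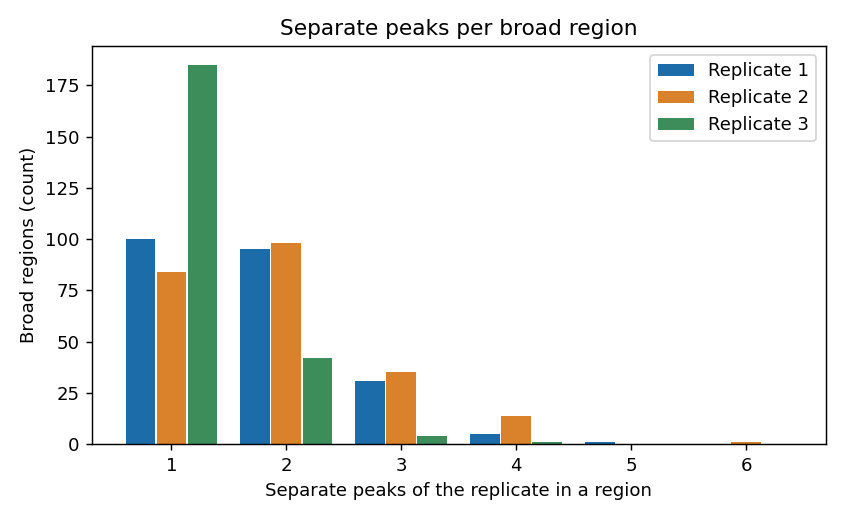
Number of separate peaks of a replicate in a region (x axis) and number of the 232 broad regions (y axis), for replicates 1, 2 and 3. Replicate 3 has a single peak in 185 regions, and replicates 1 and 2 have a single peak in 100 and 84.

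Where a list was split, neighbouring summits were well separated. Their median spacing was 474 bp over 176 neighbouring pairs in replicate 1, 461 bp over 215 in replicate 2 and 571 bp over 53 in replicate 3, a mean of 502 ± 60 bp (SD, n = 3). The quartiles were 336.75 bp and 611.75 bp in replicate 1, and 320 bp and 644 bp in replicate 2. Spacing was thus spread widely. The uncovered gaps between neighbouring peaks were short, with medians of 107 bp, 94 bp and 78 bp, and none was under 43 bp. The smallest gaps in narrower regions were much the same, at 42 bp, 46 bp and 46 bp, so this floor is not particular to broad regions. The second strongest peak of a split list had a median of 0.82, 0.79 and 0.70 times the fold of the strongest in replicates 1, 2 and 3, so it stood lower than the strongest by a moderate amount in most regions. In the narrower regions this ratio was 0.86, 0.85 and 0.84, and the summits were 307 bp, 294 bp and 337.5 bp apart. The smaller spacing there is limited by the width that chose them.

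Few inner summits recurred in every list. Summits of the 3 lists were joined where they lay within 100 bp of the next. Of the joined summits in broad regions, 127 came from all 3 lists, 186 from 2 lists and 386 from 1 list. No summit of all 3 lists was found in 111 regions (47.8%), 1 was found in 115 (49.6%) and 2 were found in 6. Of the narrower regions, 32.1% had none and 67.8% had 1, so a lack of recurrence was not confined to broad regions. In 88 broad regions (37.9%) a summit was common to replicates 1 and 2 and missing from replicate 3, against 14.0% of the narrower ones. As replicate 3 gives mostly 1 summit for a whole region, a count over all 3 lists can hardly exceed 1. The strongest summits of the 3 lists lay within 100 bp of each other in 83 broad regions (35.8%), against 52.8% of the narrower ones, and over 500 bp apart in 40 (17.2%). Their median spread was 175 bp in broad and 93 bp in narrower regions. The mean position of the strongest summits lay a median of 37.1% of the width from the nearer edge, where 50% would be the centre, and 40.4% in the narrower regions. Positions were averaged over the lists first, so summits far apart can count as central. The region on chromosome 1 from 8780163 had 49.4% with its strongest summits spread over 1733 bp.

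The widest region, on chromosome 6 from 18736991 to 18739820, shows this division. Replicate 3 held 1 peak of 2830 bp with its summit at 18739316 and a fold of 4.29. Replicate 1 held 5 peaks over 2686 bp, with summits at 18737729, 18738285, 18738675, 18739040 and 18739331 and folds from 3.03 to 4.56. Replicate 2 held 4 peaks over 2551 bp, with summits at 18737704, 18737980, 18738479 and 18739349 and folds from 3.39 to 5.40. The summits at 18739331, 18739349 and 18739316 thus recurred in all lists, while the strongest summits of the lists spread over 1336 bp, because replicates 1 and 2 were strongest elsewhere. In the second widest, on chromosome 1 from 8780163 to 8782704, replicate 3 again had 1 peak over the whole 2542 bp. Replicate 1 divided it into 2 peaks of 1264 bp and 1208 bp, and replicate 2 into 6, from 112 bp to 662 bp wide. The fold was 4.32, 5.52 and 5.35 in replicates 1, 2 and 3. The strongest summit was at 8780887 in replicate 1 and at 8780862 in replicate 3, but at 8782595 in replicate 2, near the other end.

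**Figure D3:**
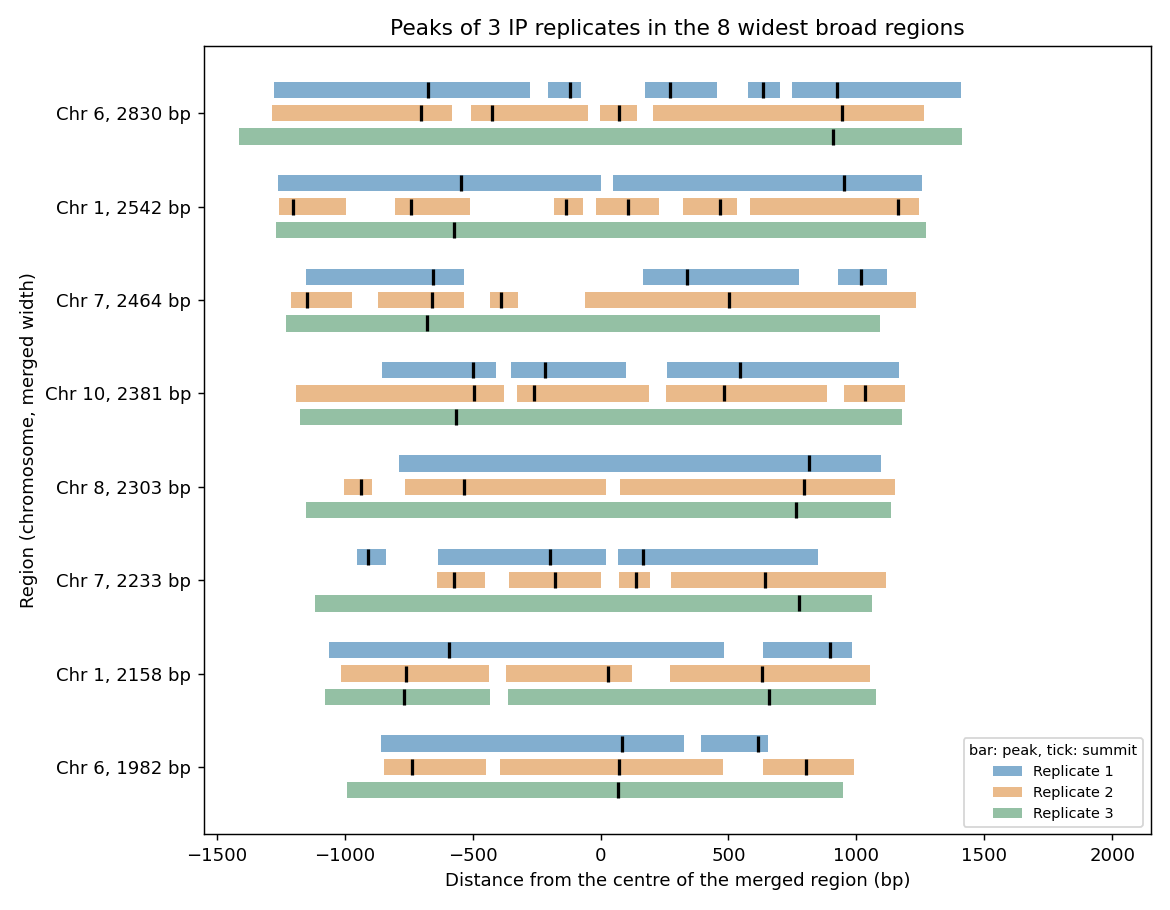
Peaks (bars) and summits (ticks) of replicates 1, 2 and 3 in the 8 widest broad regions, by distance from the centre of the merged region in bp. Replicate 3 has a single peak in 7 of the 8 regions, and replicate 2 has 3 to 6 peaks in each.

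The 6 other regions of the 8 widest were 1982 bp to 2464 bp wide. On chromosome 7 from 2531171 to 2533634 the strongest summits lay within 26 bp, with folds of 3.94, 4.43 and 4.13. On chromosome 10 from 13890464 to 13892844 the folds were 4.89, 5.86 and 5.68. On chromosome 8, the region from 1338831 to 1341133 was the only one of the 8 that also stood among the 8 with the highest fold, at 7.90, 7.65 and 6.92. Replicates 1 and 3 each held it as a single peak, of 1884 bp and 2287 bp. On chromosome 7 from 11858503 to 11860735 the folds were 4.21, 4.81 and 4.75. On chromosome 1 from 20336741 to 20338898 they were 4.51, 4.57 and 4.74, with the nearest shared region 318830 bp away. On chromosome 6 from 13231689 to 13233670 they were 3.27, 4.58 and 4.63, and the next shared region, 2227 bp away, was itself broad. This was the single pair of neighbours within 5000 bp in which both regions were broad. Apart from the region on chromosome 8, the mean folds of the 8 widest lay between 4.16 and 5.48, where all broad regions had a median of 4.42 and quartiles of 3.83 and 5.13.

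Regions with the most peaks were not always the widest. On chromosome 5 from 5797187 to 5798598, 1412 bp, the lists held 3, 3 and 4 peaks, the most of any replicate 3 region. A strong summit, at 5797551, 5797524 and 5797508, had folds of 5.75, 5.94 and 5.57, and the remaining peaks had folds from 2.21 to 3.19. On chromosome 14 from 2158879 to 2160357, replicates 1 and 2 had 4 summits each, close to one another, at 2159086, 2159380, 2159820 and 2160240 in replicate 1 and at 2159090, 2159390, 2159832 and 2160296 in replicate 2. Replicate 3 had 2 summits there, at 2159084 and 2160258, and its first peak, of 946 bp, ended at 2159824, past the first 3 summits of replicate 1 and the first 2 of replicate 2. These were among the 6 regions where 2 summits recurred in all 3 lists. The others of the 6 were on chromosome 10 from 12380723 and on chromosome 6 from 4343604, 13235898 and 18427747. The regions on chromosome 1 from 41945180 and from 49437927 and on chromosome 16 from 6863198 held 3 to 4 peaks in replicates 1 and 2, and 1 or 2 in replicate 3.

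The height of the broad regions was above that of the narrower ones. The median fold of the strongest peak was 4.08 in replicate 1, 4.53 in replicate 2 and 4.62 in replicate 3, a mean of 4.41 ± 0.29, against 3.14, 3.47 and 3.34, a mean of 3.32 ± 0.17 (SD, n = 3 each). Broad regions stood higher in each of the 3 lists. Recovered IP heights, the reads covering the summit after extension, had medians of 59, 55 and 78 in broad and of 47, 43 and 58 in narrower regions, while the expected heights were nearly the same, at 13.8, 11.1 and 16.3 against 13.7, 11.2 and 16.0. At the medians, the higher fold thus went with more IP reads at a similar expected height. High expected heights were rarer in broad regions, as given below, and the part of input in the difference was not tested. Of the 232, 70 (30.2%) had a mean fold of 5 or more. The share over all shared regions on chromosomes was 11%. A −log10 q of at least 20 in every list was reached by 61 (26.3%), against 10.8% of all shared regions on chromosomes. A caller's peak widens as it rises, and the regions were chosen by width in the same contrast, so nothing is read from these shares. The mean fold had a median SD between replicates of 0.46. The fold was highest in replicate 2 in 121 regions (52.2%), in replicate 3 in 81 (34.9%) and in replicate 1 in 30 (12.9%). The same order held in the narrower regions, at 51.8%, 31.3% and 16.9%, so it is not particular to broad regions.

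Height and width did not rise together over the whole range. Of shared regions outside chains, none of 255 with a mean fold under 2.5 was broad (95% Wilson interval up to 1.48%), and 4 of 647 with 2.5 to 3 were. The share was 4.21% of 1756 regions with a fold of 3 to 4 and 18.0% of 467 with 4 to 5 (95% Wilson interval 14.8% to 21.7%). Above that it was 16.3% with 5 to 6, 19.9% with 6 to 8 and 2 of 14 with 8 or more, with intervals that overlap. From a fold of 4 upwards, at least 4 in 5 shared regions stayed under 1000 bp in each class. These intervals cover counting error only, and regions are not independent replicates. Within the 232, Spearman's rho between merged width and mean fold was 0.17 and between width and mean number of peaks 0.39, across regions that share libraries and control. The 48 regions with a single peak in every list were narrower, with a median of 1087 bp, and stronger, with a median mean fold of 4.89. The 21 split in every list had 1348 bp and 3.84. The core common to all lists was a median of 80.6% of the width in the former and 49.96% in the latter.

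**Figure D4:**
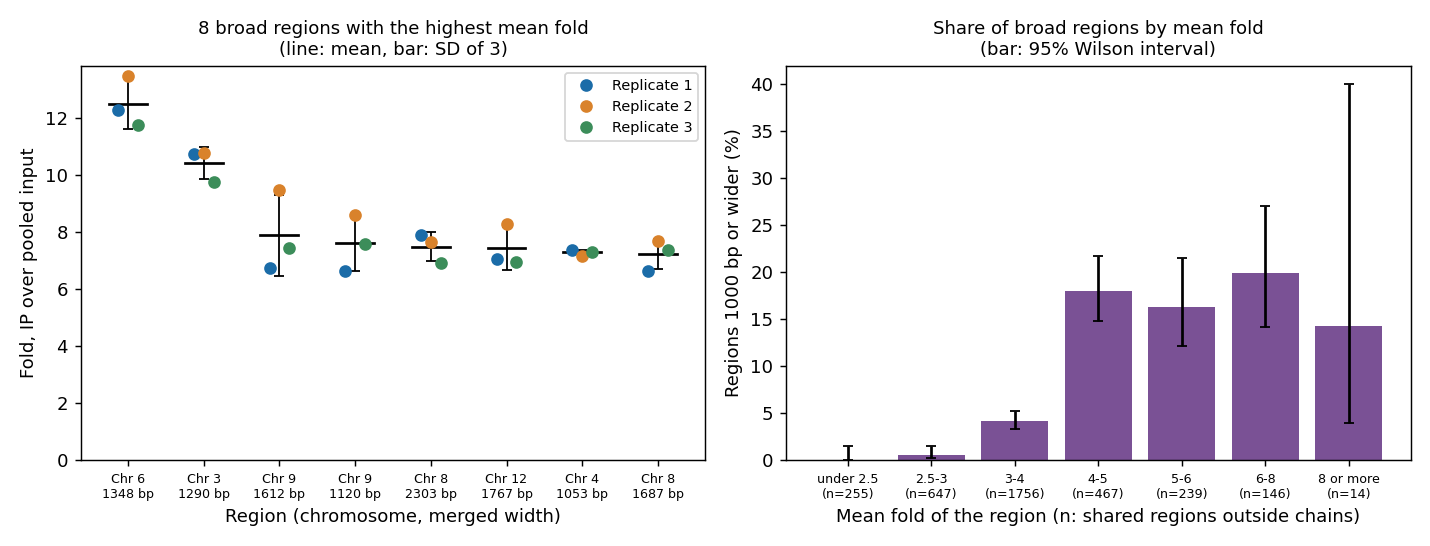
Left, fold of IP over pooled input in replicates 1, 2 and 3 of the 8 broad regions with the highest mean fold (line, mean; bar, SD, n = 3). Right, percentage of shared regions outside chains that were 1000 bp or wider by class of mean fold, with 95% Wilson intervals; it is 4.21% at a fold of 3 to 4 and 18.0% at 4 to 5, and the intervals above that overlap.

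The highest mean fold among the broad regions was that of chromosome 6 from 4343604 to 4344951, with folds of 12.3, 13.5 and 11.8 and a mean of 12.5 ± 0.89 (SD, n = 3). It was made of a strong and a weak peak in each list. The strong summits lay at 4344837, 4344841 and 4344847, with IP heights of 149, 135 and 165 reads. The weak ones lay at 4343899, 4343977 and 4343874, with folds of 3.26, 4.46 and 3.25 and IP heights of 46, 52 and 53. The width of this strongest region therefore rested in every list on a second, weaker peak, and the strong peak itself was 549 bp to 812 bp wide. The next, on chromosome 3 from 18258132 to 18259421, was a single peak of 1182 bp, 1290 bp and 1052 bp in replicates 1, 2 and 3. Its folds were 10.7, 10.8 and 9.78, and its summits lay within 3 bp of each other. These 2 were the only broad regions with a mean fold of 10 or more.

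The 6 that followed had mean folds from 7.24 to 7.90. Their replicate SDs ran from 0.096 on chromosome 4 to 1.42 on chromosome 9 from 11776931, and their order was not tested. The region on chromosome 9 from 11776931 to 11778542 had folds of 6.75, 9.49 and 7.45, with replicate 2 apart from the others. Also on chromosome 9, from 8041974 to 8043093, the folds were 6.65, 8.62 and 7.59. On chromosome 12 from 13289045 to 13290811 every list held 1 peak, of 1664 bp, 1748 bp and 1712 bp, with folds of 7.05, 8.30 and 6.95. Of the named regions this one had the largest part of its width covered in all lists, 93.8%, and its summits lay within 15 bp. On chromosome 4 from 16891410 to 16892462 the folds were 7.38, 7.19 and 7.32, the closest of the 8, yet the spans were 864 bp, 1004 bp and 726 bp. On chromosome 8 from 8023852 to 8025538 the folds were 6.65, 7.70 and 7.38.

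Regions chosen as broad from 2 lists were also wide in the list that took no part in the choice. Chosen from replicates 2 and 3, 187 regions were broad, and all 187 held a peak in replicate 1, with a median span of 1026 bp. The narrower regions of the same choice held a replicate 1 peak in 70.3% of cases, with a median span of 303 bp. Chosen from replicates 1 and 3, 179 of 179 broad regions held a replicate 2 peak, with a span of 1097 bp against 332 bp. Chosen from replicates 1 and 2, 118 of 118 held a replicate 3 peak, with a span of 1174.5 bp against 422 bp. The span in the third list reached 1000 bp in 105, 115 and 90 of these, that is in 56.1%, 64.2% and 76.3%, and in at most 2.55% of the narrower regions. A wider region has more room to meet peaks of the third list. The choice can therefore set part of the difference in span and in the share with a peak, and that part was not tested.

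The difference in span was also seen with a limit on height. With only regions of a mean fold of at least 4 in the 2 choosing lists, the median fold in the third list was 4.41, 5.002 and 5.30 in broad and 4.56, 5.08 and 4.98 in narrower regions, for replicates 1, 2 and 3 as the third. The median span there was 1086 bp, 1176.5 bp and 1176 bp against 512 bp, 533 bp and 537.5 bp. At least 98.0% of these stronger narrower regions also held a peak in the third list, so that recurrence differed little with this limit. The broad regions had the wider span in all 3 lists left out, with the same limit from the width of the chosen region. With 3 lists an exact two-sided test cannot go below p = 0.25, the lists share a control, and regions are not replicates, so no test is given.

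Broad regions depended on replicate 3 more than on the others. With the peaks of replicate 3 taken away, 125 of the 232 (53.9%) still held a merged stretch of 1000 bp or more, and 100 fell into separate pieces. Without replicate 1 it was 204 and without replicate 2 it was 184, with 23 and 35 in pieces. Applied afresh to 2 lists, the rule gave 118 regions without replicate 3, against 187 without replicate 1 and 179 without replicate 2.

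High input was rare among broad regions, but expected height is part of the contrast that chose them, so nothing is read from the share. A list's expected height of at least 4 times its lowest value was found in 1 of the 232, against 8.87% of all shared regions on chromosomes and 7.65% of the narrower ones outside chains. That region was on chromosome 15 from 14990536 to 14991546. Its folds were 2.17, 2.495 and 5.69, with expected heights of 35.8, 31.5 and 16.9. The strongest summit of replicate 3 lay 505 bp from that of replicate 1, so its 3 folds were read at different places, and the SD of 1.94 was the largest of all broad regions.

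The broad regions were spread over all 19 chromosomes, at 0.59 per Mb of the length up to the last peak. Chromosome 12 had 1.02 per Mb, chromosome 9 had 0.93, chromosome 8 had 0.92, chromosome 14 had 0.86 and chromosome 10 had 0.84. Chromosome 17 had 0.25 and chromosome 19 had 0.19, with only 4 and 3 regions. Of the shared regions outside chains, 6.58% were broad over the genome. On chromosome 12 it was 16 of 128, or 12.5% (95% Wilson interval 7.84% to 19.3%), and on chromosome 5 it was 9 of 246, or 3.66% (1.94% to 6.81%). The other 17 chromosomes lay between 4.12% and 8.51%. Chromosomes 8, 9 and 10, at 7.36% to 7.69%, lay closer to the overall share by this measure, and they held 14.2, 16.8 and 12.7 shared regions per Mb of any width and grouping. The chromosomes were compared after their values were seen, and no test was run.

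**Figure D5:**
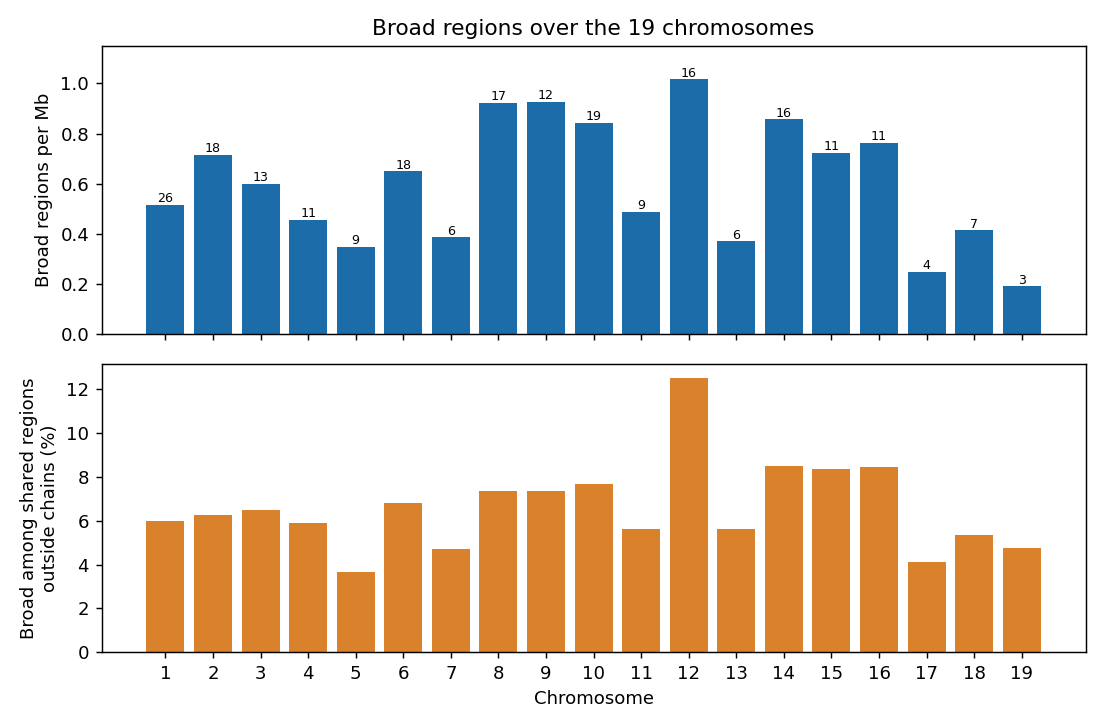
Broad regions per Mb up to the last peak (top, with the number of regions above each bar) and broad regions as a percentage of the shared regions outside chains (bottom), by chromosome. Chromosome 12 is highest in both, at 1.02 per Mb and 12.5%, and chromosome 19 has 3 regions, 0.19 per Mb.

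Broad regions were found along the whole length of the chromosomes. By position relative to the last peak, 25%, 14.7%, 17.2%, 20.7% and 22.4% lay in 5 successive parts of equal length, against 22.2%, 20.9%, 15.4%, 19.02% and 22.4% of the narrower regions. The shares stood furthest apart in the second part, where broad regions were fewer, and this was not tested. Of the 401 windows of 1 Mb, 167 held a broad region. The most in a window was 5, on chromosome 12 from 11000001 to 12000000. These started at 11110076, 11117472, 11183873, 11191732 and 11348870 and had mean folds of 4.45, 4.91, 4.43, 6.17 and 4.48. The longest stretch between neighbouring broad regions ran over 8.89 Mb on chromosome 15, from 826410 to 9718460. The nearest other shared region lay a median of 11017 bp away, against 16415 bp for narrower regions. Another shared region lay within 5000 bp of 72 broad regions (31.0%) and of 28.3% of the narrower ones. Leaving out chains limits these distances. Any peak outside the region but within 5000 bp was found beside 40.9%, 55.6% and 55.6% of broad regions in replicates 1, 2 and 3, a mean of 50.7% ± 8.5, and beside 39.7%, 53.8% and 52.6% of narrower ones, a mean of 48.7% ± 7.8 (SD, n = 3 each). The share was higher beside broad regions in each of the 3 lists, by a small amount that was not tested.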

How the data were processed

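ChIP-seq peak lists of 3 IP replicates were used, each called against pooled input, per the peak names. The tools named in the submitters' processing notes are MACS2 2.1.0, Bowtie2 2.3.5, Trimmomatic 0.33 and deepTools 3.5.1. For build, threshold and duplicates the value is not given in the sources used here. Columns of the deposited lists were read by the layout of the caller's output as a fold ratio at the summit, a −log10 p, a −log10 q and a score derived from the p. All are the authors' own values.

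IP and expected heights were recovered per peak from the deposited fold, with an added count of 1, and the −log10 p, as the whole-number height whose Poisson tail came within 0.001 of it. A height was found for 100% of peaks in every list. The fold of a region in a list is that of its peak with the highest −log10 p. Chromosome length is the last peak end. Heights set the precision, and Wilson intervals cover counting error only. Python 3.11.15, pandas 2.3.3, numpy 2.4.6 and scipy 1.17.1 were used, and the steps were tested on simulated lists.

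The members, comparisons and classes were chosen with earlier results of these data known. Named regions are the 8 with the highest mean fold, the 8 widest, the 8 with the most summits, and 4 on each side of 1000 bp. The planned naming of genes was not done, as no annotation of the files' build was used here. Alternatives changed the width limit, the chain gap, the peaks used, the overlap, the meaning of width, the replicates and the fold.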

Additional observations from a re-analysis of the deposited data

How the results depend on the processing

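The 232 broad regions numbered 495 with a limit of 800 bp, 37 with 1500 bp, 96 with a span of 1000 bp in each list, 53 with 1000 bp covered in all 3 lists, and 118 to 187 when 1 replicate was left out. The cause was not tested where fewer samples or a stricter limit does not show it. The median width moved from 1223 bp to 982 bp, 1687 bp, 1428.5 bp and 1504 bp under the first 4 of these, and to between 1151 bp and 1228 bp without a replicate. The median number of summits, taken over all regions and lists together, rose from 1 to 2 with 1500 bp and with the span in each list. Within single lists the median over the 232 regions was 2, 2 and 1 in replicates 1, 2 and 3. The median spacing of 480 bp was 564 bp with 1500 bp, 631 bp with 1000 bp covered in all 3 lists and 572 bp when a −log10 q of 10 or more was required. The median of the mean folds, 4.42, was 4.78 with 1500 bp and 5.05 with 1000 bp covered in all lists. The share of regions split in every list, 9.05%, was 0.51% under that requirement and 4.39% with equal numbers of peaks per list. It was 13.5% with the span in each list and 3.77% with 1000 bp covered in all lists. Without a replicate it was 4.47% to 22.9%, where only the remaining lists had to be split. Summits in all 3 lists numbered 0.55 per region, and 0.34 when joined within 50 bp. Among regions with a fold of at least 4, added after seeing the data, the span in replicate 2 when left out was 1176.5 bp in place of 1097 bp. The number of regions also depended on the chain rule, at 290 with chains kept, 246 with a shorter chain gap and 203 with a longer one. It was 224 with an overlap of 50 bp and 231 without high-input peaks. Under these settings the median width stayed between 1215 bp and 1224 bp, and the median of the mean folds between 4.39 and 4.46. The share split in every list was lowest with the overlap of 50 bp, at 6.25%. The fold of 7 of 25 named regions moved by more than its SD without the added count. No paired analysis was possible because the IP and input samples share replicate numbers but every IP list was called against the pooled input.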
